A study of Homo sapiens with 30 samples.

Results

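LARP6 is an RNA-binding protein of the La-related family that contacts RNA through a La-module, a La-motif followed by an RNA recognition motif, flanked by disordered N- and C-terminal regions. It is best known for binding a stem-loop at the start of type I collagen mRNAs and for its association with mRNAs of ribosomal proteins. In a translated mRNA the coding sequence is read codon by codon by elongating ribosomes, so a protein crosslinked there occupies RNA that ribosomes also pass over. The peaks described here came from iCLIP, which maps the nucleotides where a protein was crosslinked to RNA by UV light, and had their centre inside a coding sequence (CDS). A peak was a member if its centre fell in the CDS of the Ensembl canonical transcript of a protein-coding gene on the same strand, more than 100 coding nt past the start codon and more than 100 coding nt before the stop codon, and was not on the mitochondrial chromosome. This rule used position alone, and 15166 of the 48311 peaks in 5 lists met it.

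The 5 lists came from U-87 MG, a human glioblastoma cell line, carrying lentiviral constructs for N-terminally myc-tagged LARP6 that doxycycline switches on (60 ng/mL for 24 h in every line, the parental line included). The constructs were the full-length protein (FL) and versions lacking the N-terminal region (ΔNTR), the La-module (ΔLa-module), both of these (ΔNTD) or the C-terminal region (ΔCTR). The lines were puromycin-selected pools and kept the LARP6 of the parental cells. Each list pooled 3 replicates and had peaks of parental cells removed, so no list carries a spread between replicates, no difference between lists could be tested, and the 95% intervals given cover counting error only. RNA abundance came from 1 paired-end (PE150) RNA-seq input library per line, 6 in all, with 25027075 to 28692476 counts. Among mesenchymal glioblastoma markers, VIM, FN1 and CD44 had at least 2083.5 CPM (counts scaled to library size) in each of the 6 libraries. The other markers of this kind were lower, COL1A1 at 629.4 to 995.1 CPM, SPARC at 561.2 to 669.5, CHI3L1 at 84.05 to 111.1 and NES at 52.02 to 57.75. Of genes not expected in these cells, PTPRC and CDH1 had 0 to 2 counts and EPCAM and PECAM1 28 to 67. The glial lineage genes were also low, with 0 to 6 counts for GFAP, SOX2 and S100B and 41 to 70 for OLIG2.

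The sequences of 11 of the 12 highest-scored FL members, all but ASPH, are shown first because the comparisons below turn on them. A score is the value of the peak caller summed over the pooled replicates, and 3 was the lowest score listed. For each peak the 30 bases of spliced mRNA around its centre are given 5′ to 3′ on the coding strand, with runs of at least 4 pyrimidines in capitals and the GRCh38 interval of the whole peak.
MMP2, exon 3, chr16:55484062-55484119, plus strand: CTTCCaagtctggagcgatgtgaCCCCact
ENO1, exon 6, chr1:8867201-8867257, minus strand: ttggtgcgaacgccaTTCTgggggtgTCCC
RACK1, exon 3, chr5:181241611-181241642, minus strand, window crossing an exon junction: aacgggcaccaccacgaggcgatttgtggg
AP4B1, exon 10, chr1:113895365-113895425, minus strand: gcttactgctgattaTTTTgagaaaacttg
RPLP1, exon 2, chr15:69453664-69453694, plus strand: CCTCattaaagcagccggtgtaaatgttga
DYNC1H1, exon 8, chr14:101986537-101986598, plus strand: gtttgccaTCTCactgatcgagagcgttcg
IPO5, exon 26, chr13:98018584-98018617, plus strand: cttaagaccaatgCTCCaatatgtatgtga
RTN4, exon 4, chr2:54987604-54987704, minus strand: aagaagactggagtggtgtttggtgccagc
ITGA3, exon 9, chr17:50074218-50074275, plus strand: acccagaCCTTCTagtgggaagcctgtcag
LRP1, exon 34, chr12:57181217-57181266, plus strand: gacgacccgCTCCTgcatgtgcacagccgg
FTH1, exon 3, chr11:61965089-61965112, minus strand, window crossing an exon junction: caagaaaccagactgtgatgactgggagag
No long pyrimidine tract was common to these windows. In the 11 windows shown, the share of C plus T ran from 30% at FTH1 to 56.7% at MMP2 and DYNC1H1, and 3 of them, those of RACK1, RTN4 and FTH1, held no run of 4.

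The 3 large lists held most members, of which FL contributed 4406, ΔNTR 5408 and ΔCTR 5148. These made up 30.96% (95% Wilson interval 30.2 to 31.7) of the FL peaks off the mitochondrial chromosome, 31.65% (30.96 to 32.35) of the ΔNTR peaks and 32.6% (31.9 to 33.4) of the ΔCTR peaks. The share was 22.6% (19.4 to 26.1) for ΔLa-module with 134 members and 24.8% (20.1 to 30.2) for ΔNTD with 70, the 2 lists of proteins without the La-module. Relative to FL, ΔNTR thus had 1.23 times as many members but 0.981 times the summed score, 26153 against 26658. ΔCTR had 1.17 times as many members and 1.24 times the summed score, 32957. The ΔNTR members were lower in score, with 6.18% at 10 or more against 12.03% in FL and 13.4% in ΔCTR. ΔLa-module and ΔNTD had summed scores of 428 and 219 and no member above 7. The number of unique reads behind each list is unknown, so a ratio between lists joins differences in depth, in crosslinked protein and in binding.

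Per length, coding sequences held fewer peaks than 3′UTRs in the 3 large lists. Over genes with at least 1 CPM in the input of the same line, FL had 222 peaks per Mb of interior CDS (95% exact Poisson interval 216 to 229) and 276 (270 to 283) per Mb of 3′UTR. The same densities were 271 (263 to 278) and 344 (337 to 352) in ΔNTR and 259 (252 to 266) and 325 (318 to 332) in ΔCTR. In 5′UTRs ΔCTR had 174 peaks per Mb (157 to 191) and FL 252 (232 to 273), so the higher number of ΔCTR peaks in coding sequences and 3′UTRs did not extend to 5′UTRs.

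The 12 highest-scored FL members lay in 12 genes, and at all 12 the ΔNTR and ΔCTR lists had at least 1 overlapping peak while ΔLa-module and ΔNTD had none. Where 2 peaks of a list overlapped the FL member their scores were added, which applies to ΔNTR at MMP2, AP4B1 and RTN4 and to ΔCTR at AP4B1, RTN4 and DYNC1H1. MMP2, which encodes the secreted gelatinase MMP-2, had the highest FL member, at coding nt 456 of 1980, with a score of 156, and the other lists had 172 (ΔNTR) and 204 (ΔCTR). ENO1, the glycolytic enolase, scored 146 in FL, against 56 for ΔNTR and 152 for ΔCTR. RACK1, a scaffold protein of the small ribosomal subunit, scored 134, 81 and 119 in the same order. AP4B1, a subunit of the AP-4 trafficking adaptor, scored 126, 29 and 109. RPLP1, an acidic protein of the ribosomal stalk, scored 113, 62 and 139. DYNC1H1, the heavy chain of cytoplasmic dynein, scored 110, 115 and 194.

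At 10 of the 12 sites ΔNTR was below FL, and MMP2 and DYNC1H1 were the exceptions. IPO5, a nuclear import receptor, had 106, 45 and 75 in the same order. RTN4, a protein that shapes the endoplasmic reticulum, had 105, 62 and 111. ITGA3, an integrin chain that binds laminins, had 88, 52 and 114. ASPH, a hydroxylase of the endoplasmic reticulum, had 87, 38 and 76. LRP1, an endocytic receptor, had 83, 58 and 81, and FTH1, the ferritin heavy chain, had 83, 79 and 57. AP4B1 had the lowest input of the genes named so far, 38.7 CPM in FL, and its 1 FL member scored 126. The 12 sites were picked by their FL score, which favours values that are high in FL, so the direction of the ratio at these sites alone is no result.

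**Figure D1:**
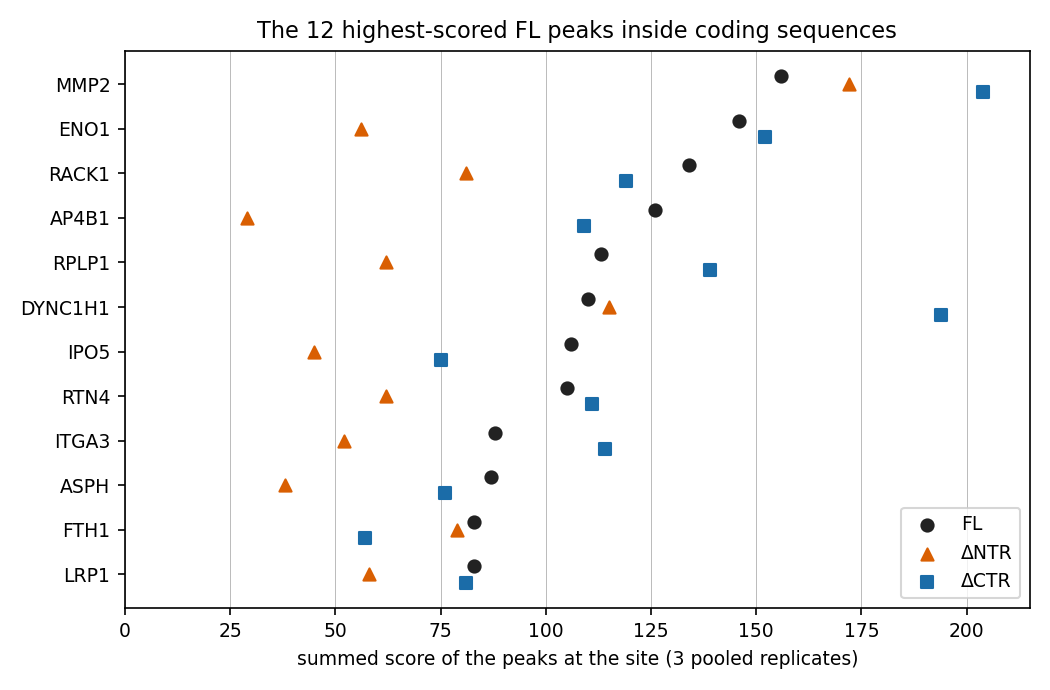
Scores (x axis, summed over pooled replicates and over overlapping peaks) at the 12 highest-scored FL members (y axis, by gene) in FL (circles), ΔNTR (triangles) and ΔCTR (squares). ΔNTR lies left of FL at every site except MMP2 and DYNC1H1, and ΔCTR reaches 204 at MMP2 and 194 at DYNC1H1.

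Whether an FL member was found again followed its score. Of the 4406 FL members, 33.9% (Wilson interval 32.5 to 35.3) shared at least 1 nt with a ΔNTR peak, 37.6% (36.2 to 39.0) with a ΔCTR peak, 23.9% with both and 52.4% with neither. Among the 2403 FL members at the lowest score of 3, 16.6% were overlapped in ΔNTR and 19.1% in ΔCTR. Among the 530 at 10 or more these shares were 87.5% (84.5 to 90.1) and 93.6% (91.2 to 95.4), and each of the 32 at 50 or more was overlapped in both lists. The corresponding shares over all 6741 FL peaks of 3′UTRs were 40.6% and 43.4%. ΔLa-module peaks overlapped 21 FL members and ΔNTD peaks 12.

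Members at 10 or more were mostly met by another list. Of 530 such FL members 13 had neither a ΔNTR nor a ΔCTR peak, and 32 of 334 ΔNTR members and 93 of 692 ΔCTR members had no FL peak. Among the highest FL members without a ΔNTR or ΔCTR peak, scores were 14 in SH2B3, a signalling adaptor, 13 in TUBA1B and 12 in LTBP1 and NPTXR. The highest ΔNTR members without an FL peak were 23 in VIM at coding nt 949, 17 in PLEC, 14 in HTRA1, and 13 in SPTBN1 and TGFBI, and VIM, PLEC and SPTBN1 encode cytoskeletal proteins. Those of ΔCTR were 26 in AHNAK, 19 in BRK1, 18 in ERO1A and CALR and 17 in ADAMTS1. Of these 5 ΔCTR sites, AHNAK, BRK1 and CALR also had ΔNTR peaks, with summed scores of 8, 15 and 9.

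Scores were compared at FL members that met exactly 1 ΔNTR peak and 1 ΔCTR peak. At these 910 sites in 507 genes the ΔNTR scores summed to 0.799 of the FL sum (95% exact binomial interval 0.777 to 0.822) and the ΔCTR scores to 1.31 times the FL sum (1.28 to 1.34). In this sum a broad ΔNTR or ΔCTR peak that spanned several FL members entered more than once, as at USP24, where 1 ΔCTR peak of 58 met FL members of 58 and 31. With only the 761 sites in 470 genes where each peak met no second FL peak, a choice made after seeing the data, the ratios fell to 0.713 (0.690 to 0.737) for ΔNTR and 1.18 (1.14 to 1.21) for ΔCTR. The direction of both was kept, and all ratios for genes and gene lists below use these 761 sites. ΔNTR was lower than FL at 447 of them and higher at 220, and ΔCTR was lower at 267 and higher at 413.

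At 1267 sites of 3′UTRs matched in the same strict way the ratios were 0.616 (0.603 to 0.629) for ΔNTR and 1.19 (1.17 to 1.22) for ΔCTR. By summed score ΔNTR was therefore nearer to FL in coding sequences, but by the median site it was nearer in 3′UTRs, with a median ratio of 0.750 in the CDS and 0.800 in the 3′UTR, so no order of the regions can be given. Where the 3 scores averaged 10 or more, 259 CDS sites gave 0.650 (0.624 to 0.677) and 1.19 (1.15 to 1.24).

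FL members lay in 2019 genes, ΔNTR members in 2119 and ΔCTR members in 2299. Among protein-coding genes with at least 1 CPM, FL had a member in 17.4%, ΔNTR in 18.1%, ΔCTR in 19.8%, ΔLa-module in 0.954% and ΔNTD in 0.562%. Most host genes held a single member, 61.6% of those of FL. The other extreme was a small set of long or abundant mRNAs: 50 genes had 10 or more FL members, and 150 genes carried 50% of the FL score. The share of genes with an FL member went from 1.58% at 1 to 10 CPM to 43.99% at 100 to 500 CPM and 80.8% (75.1 to 85.4) at 500 CPM or more. The density went from 0.0119 to 2.08 members per kb over the same range, so lists of abundant mRNAs cannot be read against the background alone.

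The 10 genes with the highest summed FL score are given by rank. FN1, which encodes the matrix glycoprotein fibronectin, had 54 FL members with a summed score of 386, against 73 members and 475 in ΔNTR and 68 and 610 in ΔCTR. COL6A3, a chain of type VI collagen, had 44 members with 385, 60 with 436 and 43 with 664. DYNC1H1 had 357, 455 and 535. VIM, the intermediate filament protein vimentin, had 310, 352 and 326, and its 17 FL members made 14.2 per kb of interior CDS. FLNA, an actin crosslinker, had 309, 411 and 320. LRP1 had 293, 270 and 399. COL1A1, the α1 chain of type I collagen, had 288, 308 and 565. MMP2 had 280, 351 and 312, AHNAK 254, 374 and 300, and FLNC 243, 231 and 206. By number per kb, the first genes among those with at least 5 FL members were ACTG1 at 15.2, VIM, PKM at 13.7, ENO1 at 13.6 and GAPDH at 12.4. ACTG1 and ACTB encode near-identical proteins from similar coding sequences, and how reliably reads were assigned between them was not tested.

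Members ran along most of the length of these coding sequences, with a few high sites between many low ones. In FN1 the 4 highest FL members were at coding nt 4905, 4558, 1737 and 6912 with scores of 38, 28, 27 and 22. ΔCTR had its 4 highest members at nt 4907, 4528, 1733 and 6906 with 74, 44, 41 and 39. The 4 highest ΔNTR members were at nt 4910, 6910, 509 and 572 with 25, 23, 22 and 22, so only the first 2 lay at sites that were also highest in FL. In COL6A3 the first site of all 3 lists was at nt 9159 or 9160, where FL scored 73, ΔNTR 68 and ΔCTR 201. No COL6A3 member of the 3 lists lay before nt 1194 of 9531. In COL1A1 the highest member lay at nt 1575 in FL with 47 and at nt 1563 in ΔCTR with 94, and the highest ΔNTR member, at nt 1622, scored 20. MMP2 differed from these genes in that 1 site held 55.7% of its FL score.

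**Figure D2:**
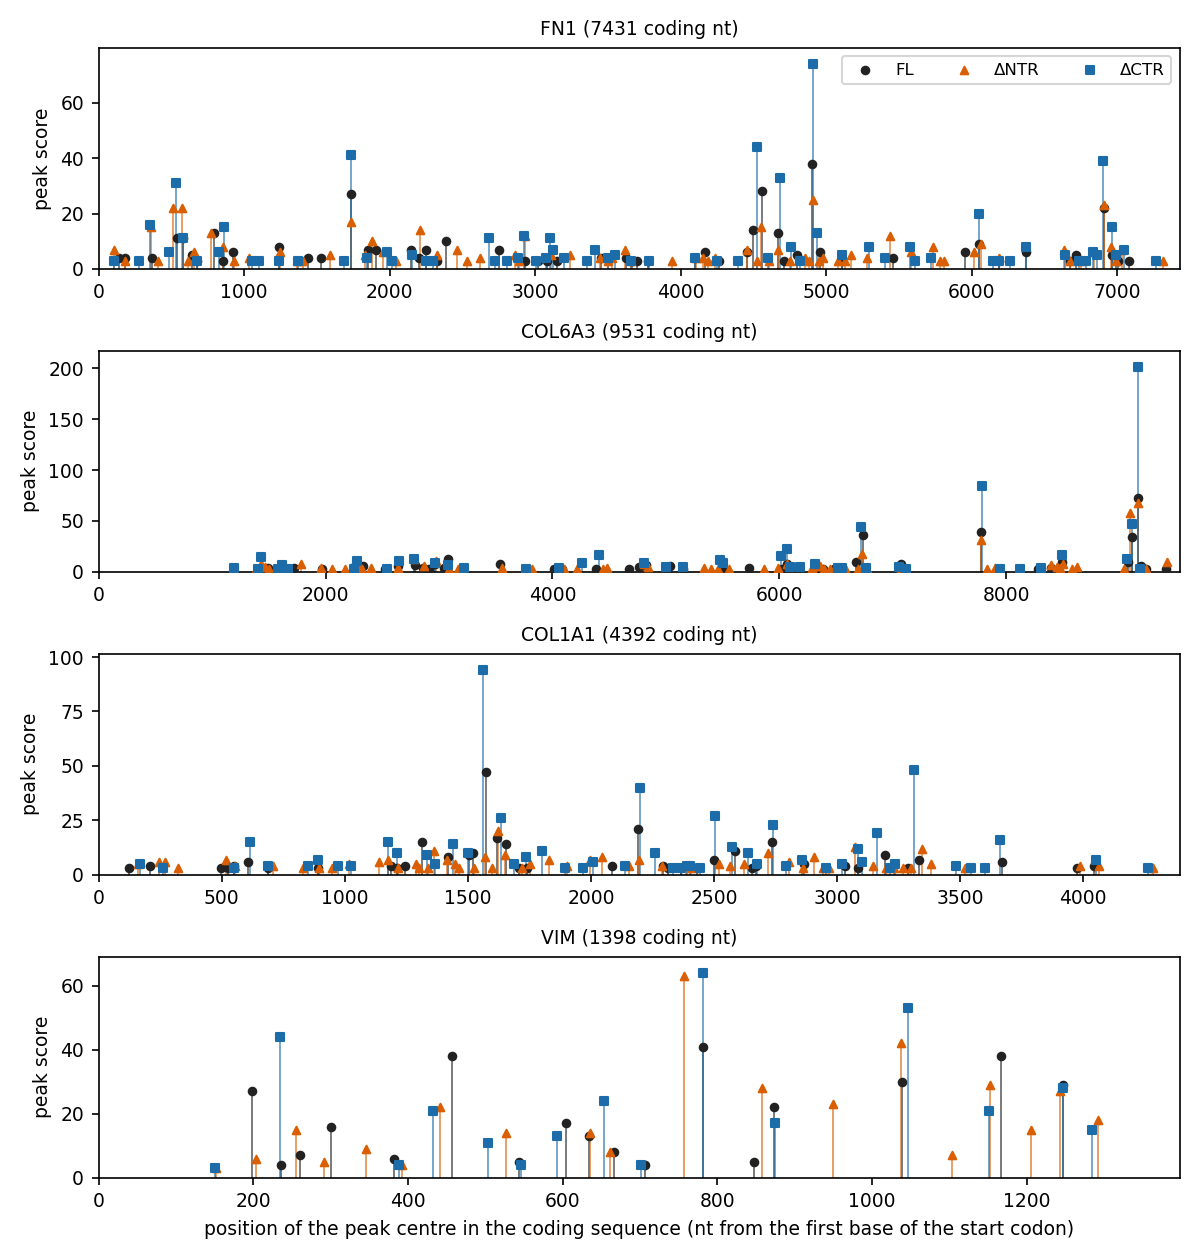
Score (y axis) of every member along the coding sequence of FN1, COL6A3, COL1A1 and VIM (x axis, position of the peak centre in coding nt) in FL (circles), ΔNTR (triangles) and ΔCTR (squares). Some high sites recur, as at nt 9160 of COL6A3, where FL has 73 and ΔCTR 201, while the order of sites differs between lists, as in COL1A1, where the highest FL member is at nt 1575 and the highest ΔNTR member at nt 1622.

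Collagen mRNAs carried their score mainly in the coding sequence. Of 19 expressed collagens 10 held an FL member, with 136 members and a summed score of 976, and 88.3% of the score in their interior CDS and 3′UTRs was in the CDS. Over all genes the FL score was 26658 in the interior CDS and 53716 in 3′UTRs. The lengths of CDS and 3′UTR, which differ between gene lists, were not allowed for in such shares. ΔNTR had members in 7 of 18 with a summed score of 1100, and ΔCTR in 9 of 20 with 1680. At 40 matched collagen sites the ΔCTR sum was 1.84 times that of FL (1.63 to 2.07) and the ΔNTR sum 0.869 times (0.755 to 1.00). Both ratios were above those of all members, 1.18 and 0.713. For ΔNTR the other gene lists were also above 0.713, except collagen processing and ER chaperones (0.6055) and cytosolic and mitochondrial chaperones (0.559). A single site weighed heavily in each exception. In the first, a PLOD2 site had 43 of the FL sum of 109 and 15 of the ΔNTR sum of 66. In the second, an HSP90AA1 site had 62 of the FL sum of 118 and 16 of the ΔNTR sum of 66. For ΔCTR some other lists were above 1.18, such as cytosolic ribosomal proteins at 1.35, and some below, such as glycolysis at 1.06. COL6A3 had a ΔCTR ratio of 2.00 (1.68 to 2.38) at 11 sites. COL1A1 had 2.02 (1.57 to 2.62) at 13 sites, while its input was 995 CPM in the ΔCTR line, 730 in FL and 629 in ΔNTR. This input moved in the same direction, and its part in the ratio was not tested. COL1A2, the α2 chain, had summed scores of 107, 145 and 204. COL8A1, COL16A1 and COL13A1, at 128, 75.3 and 61.9 CPM in FL, had no member in any list.

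Matrix glycoproteins and laminins followed, with a member in 16 of 26 expressed genes for FL, 13 for ΔNTR and 17 for ΔCTR. Their ratio at 35 matched sites was 1.70 (1.476 to 1.965) for ΔCTR and 1.05 (0.894 to 1.23) for ΔNTR. FBN1, which encodes fibrillin-1, had 135, 179 and 228 in FL, ΔNTR and ΔCTR, and TNC, tenascin-C, had 89, 90 and 140. TIMP3, THBS2 and CCN2 had no member. Among genes for collagen processing and chaperones of the endoplasmic reticulum, 16 of 22 held an FL member. CALR, a calcium-binding chaperone, had 80, 80 and 129. PLOD2, a lysyl hydroxylase, had 83, 52 and 77, and P4HB, protein disulfide isomerase, had 50, 39 and 30. This list had the lowest ΔCTR ratio of the 14, 0.688 (0.506 to 0.932) at 11 sites, 4 of them in PLOD2. Integrins, cadherins and catenins had FL members in 10 of 26 genes, led by ITGA3 with 231, 239 and 269, ITGB1 with 188, 195 and 285 and ITGA5 with 85, 49 and 117. No peak was found in the coding sequence of ITGB3, at 195 CPM in FL, and all of its interior CDS lies inside another annotated gene on the same strand, where peaks were almost never listed.

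Actin cytoskeleton genes as a list had most of their score outside the CDS, and 1 gene weighed heavily in this. The same held over all genes, with FL scores of 26658 in the interior CDS and 53716 in 3′UTRs. They held 200 FL members in 21 of 36 expressed genes with a summed score of 1131, and 23.4% of their CDS and 3′UTR score was in the CDS. ACTB, β-actin, had no CDS member in any of the 5 lists while its 3′UTR scored 2098, 1120 and 3293 in the 3 large lists. Without ACTB the share in the CDS was 41.3% in FL (Wilson interval 39.5 to 43.2). The score in FLNA, FLNC and MYH9 lay mainly in the CDS for the 2 filamins, with 309 and 243 in FL against 14 and 42 in the 3′UTR, and in the 3′UTR for the myosin, with 93 against 117. Tubulins and intermediate filaments had members in 11 of 15 genes, where TUBA1C had 69, 34 and 102 and TUBA1B 52, 53 and 66. These α-tubulins are near-identical in sequence, which makes their separate values uncertain. TUBA1A, of the same family, had no member and a 3′UTR score of 24 in FL.

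**Figure D3:**
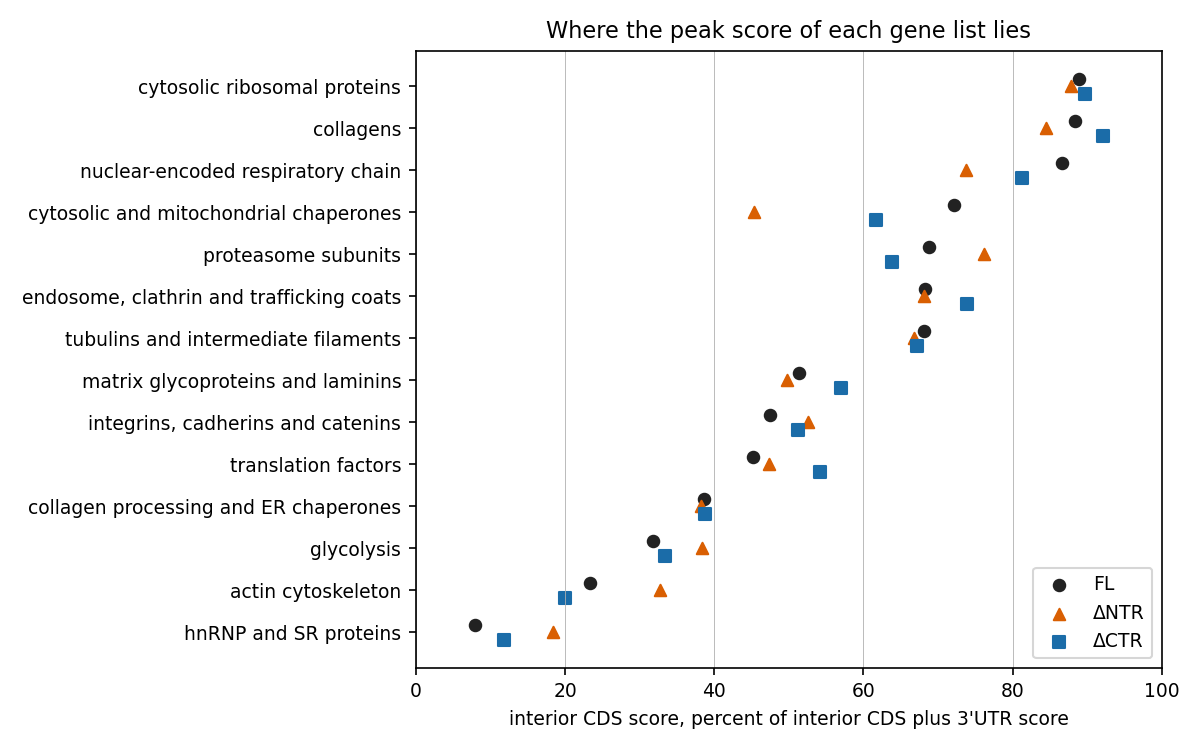
Share of the interior CDS plus 3′UTR score that lay in the CDS (x axis, percent) for 14 gene lists (y axis) in FL (circles), ΔNTR (triangles) and ΔCTR (squares). Collagens at 88.3% and cytosolic ribosomal proteins at 89.0% in FL lie at one end, and actin cytoskeleton at 23.4% (41.3% without ACTB) and hnRNP and SR proteins at 7.87% (25.5% without HNRNPH1) at the other. Over all genes, not drawn here, FL scored 26658 in the interior CDS and 53716 in 3′UTRs.

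Glycolysis genes had FL members in 9 of 17 genes with 2.64 members per kb, the highest density of the 14 lists. PKM had 191, 225 and 212 and LDHA 91, 91 and 102 in FL, ΔNTR and ΔCTR. PGK1 had no member in any list but 3′UTR scores of 879, 416 and 834. The share of the list's FL score in the CDS was 31.7%, and 56.4% without PGK1. ENO1 had 15 FL members while the enolase gene ENO2, at 232 CPM, had none.

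Cytosolic ribosomal protein mRNAs had a member in 27 of 80 expressed genes for FL, 29 for ΔNTR and 32 for ΔCTR. The median interior CDS of these genes was 254 nt long, against 4611 nt for collagens. RPLP1 led with 137, 88 and 158, followed by RPLP0 with 39, 57 and 66 and RPS19 with 32, 23 and 43. RPS3A, RPL19 and RPL7, with 645.3 to 800.9 CPM in the 3 inputs, had no member. Of 39 translation factors, 22 held an FL member, 15 a ΔNTR member and 18 a ΔCTR member. EIF4G2 had 109, 143 and 135 and the elongation factor EEF2 had 87, 96 and 154.

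Genes of hnRNP and SR proteins, which bind pre-mRNA, had members in 11 of 38 genes in FL, and 7.87% of their CDS and 3′UTR score was in the CDS. HNRNPH1 had no member and a 3′UTR score of 720, and without it the share was 25.5% (21.0 to 30.5). HNRNPU had 15, 38 and 25, TRA2B 22, 12 and 27 and PCBP2 10, 7 and 19. HNRNPA1, at 782 CPM in FL, had none, and all of its interior CDS lies inside another same-strand gene. Cytosolic and mitochondrial chaperones held FL members in 14 of 22 genes, ΔNTR members in 12 and ΔCTR members in 17. HSP90AA1 had 156, 93 and 149, HSP90AB1 42, 17 and 57 and HSPA8 50, 27 and 33. The ratio at 10 matched chaperone sites was 0.559 (0.407 to 0.762) for ΔNTR and 1.02 (0.789 to 1.33) for ΔCTR. These intervals leave out the spread between sites. A single HSP90AA1 site held 62 of the FL sum of 118, 16 of 66 in ΔNTR and 66 of 121 in ΔCTR.

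Proteasome subunits had members in 15 of 37 genes in FL and in 21 in ΔCTR, led by PSMD2 with 35, 46 and 50, PSMA7 with 30, 46 and 53 and PSMD3 with 38, 9 and 15. PSMC1, at 219 CPM, had none. The nuclear-encoded respiratory chain had members in 13.2% (Wilson interval 7.12 to 23.3) of its genes for FL, 13.04% for ΔNTR and 19.1% for ΔCTR. All genes had 17.4%, 18.1% and 19.8%, and genes with less than 500 nt of interior CDS had 8.4%, 8.8% and 10.5%. The median interior CDS of this list was 223.5 nt in FL. ATP5F1B with 102, 78 and 120 and ATP5F1A with 59, 54 and 92 led the list. Endosome, clathrin and trafficking coat genes had members in 18 of 26 genes in FL, where CLTC, the clathrin heavy chain, had 45, 65 and 64 beside DYNC1H1 and LRP1. AP1B1, at 110 CPM, had none.

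The distribution of score among genes was compared between lists for genes with a summed CDS score of at least 30 over FL and the other list. Each gene's score plus 1 was taken as a share of the CDS total of its list. The ΔNTR share was at least 2-fold higher than in FL for 33 of 340 genes (9.71%) and at least 2-fold lower for 56 (16.5%). The ΔCTR share was at least 2-fold higher for 30 of 386 genes (7.77%) and lower for 39 (10.1%). The counting interval of the share ratio lay above 1 for 59 genes and below 1 for 84 in ΔNTR, and above for 51 and below for 74 in ΔCTR.

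For ΔNTR the highest changes were in NIBAN2, with a score of 14 in 4 FL members and 92 in 18 ΔNTR members, RETREG2 with 6 and 41, ABR with 5 and 29, CANX with 8 and 35 and SLC4A2 with 9 and 38. Their log2 changes in share ran from 2.66 for NIBAN2 to 1.99 for SLC4A2. NIBAN2 had 472 CPM in the FL input and 594 in the ΔNTR input. The lowest were PHC3, a Polycomb protein, with 34 in FL and 3 in ΔNTR, TTL, the tubulin tyrosine ligase, with 35 and 4, the RNA helicase DDX23 with 33 and 5, STON2 with 35 and 6 and the zinc transporter SLC30A4 with 33 and 6. Their log2 changes ran from -3.10 for PHC3 to -2.25 for SLC30A4. In TTL, STON2 and SLC30A4 the ΔCTR score stayed near FL, at 24, 32 and 27, whereas PHC3 and DDX23 had 4 in ΔCTR too.

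For ΔCTR the highest changes were in NRP2, a semaphorin receptor, with 3 in FL and 38 in ΔCTR, DEGS1 with 3 and 31, the ubiquitin ligase TRIP12 with 4 and 31, the metalloprotease ADAM12 with 6 and 38 and the helicase DDX5 with 6 and 34. The lowest were MTOR, the growth-regulating kinase, with 33 in 9 FL members and 3 in 1 ΔCTR member, PHC3 with 34 and 4, DDX23 with 33 and 4, RPL8 with 32 and 4 and DLG5 with 51 and 14. MTOR scored 16 in ΔNTR, and none of its 9 FL members, all below 10, overlapped a peak of ΔNTR or ΔCTR. The same held for 52.4% of all FL members, 71.7% of those at 3 and 38.9% of those at 4 to 9. PHC3 and DDX23 were among the 5 lowest genes in both comparisons, which share the FL values.

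The 134 ΔLa-module members and 70 ΔNTD members were low and spread out. They lay in 114 and 66 genes, and 83.6% and 90% of them had the lowest score. The highest were in abundant mRNAs that also had FL members: HSP90AA1 with 7 in ΔLa-module at a site with 28 in FL, and VIM with 5 at a site with 48, a single FL peak whose centre lay within 100 coding nt of the stop codon and which was therefore no FL member. In ΔNTD they were VIM with 5 at a site with 38 in FL and HSP90AA1 with 5 at a site with 31. The others named by rank had 4, in ENO1, PEX14 and ELOVL1 for ΔLa-module and in VIM, ACLY and CCT8 for ΔNTD, and PEX14, ELOVL1, ACLY and CCT8 had no FL peak there. An FL peak was met by 17.2% (11.7 to 24.4) of the ΔLa-module members and 18.6% (11.2 to 29.2) of the ΔNTD members, near the 15.0% and 15.2% of ΔNTR and ΔCTR members at the score of 3. Of their expressed host genes 46.8% and 43.1% were among the 500 most abundant, against 17.8% for FL. FL had 2015 expressed host genes, so the size of its list caps its share, and 359 of the 500 were FL host genes. These shares therefore cannot show that the short lists lean more to abundant mRNAs than FL does.

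Members were richer in pyrimidines than the coding sequences that held them, by a small amount. The values describe crosslinked positions, and whether they reflect a sequence preference of LARP6 was not tested. Over the 31 nt around the centre, C plus T made up 49.3% in FL against 47.5% of the interior CDS of the same genes, an excess of 1.88 percentage points (1.57 to 2.19). ΔNTR had an excess of 2.19 points (1.91 to 2.46) and ΔCTR of 1.82 (1.54 to 2.09), and it came mostly from T, at 1.61, 1.80 and 1.89 points. Of the single FL members, 57.5% (56.0 to 58.9) were above their own CDS. Members at 10 or more had an FL excess of 2.12 points (1.23 to 3.02). At 3′UTR peaks, measured against their own 3′UTR, FL had 2.35 points (2.06 to 2.64), ΔNTR 2.60 and ΔCTR 1.74.

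The excess was not symmetric about the centre. In the 30 nt from 40 to 11 nt before it, FL differed from the same CDS by 0.116 points (-0.197 to 0.430). In the 11 nt starting at the centre FL was higher by 3.85 points (3.35 to 4.35), ΔNTR by 4.00 (3.56 to 4.45) and ΔCTR by 3.62 (3.18 to 4.07). From 11 to 40 nt after the centre FL was higher by 1.28 points (0.956 to 1.60), ΔNTR by 1.68 (1.393 to 1.964) and ΔCTR by 1.16 (0.873 to 1.44). In this last window C contributed 0.573 points (0.328 to 0.819) in ΔNTR, and the intervals of FL and ΔCTR for C included 0. The FL interval, -0.141 to 0.391, overlapped that of ΔNTR. For ΔNTR members at 10 or more C contributed 0.0802 points (-0.792 to 0.953). These windows were chosen after the profile had been seen.

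Counts of 5-letter words in the same 31 nt gave no single motif. Of the 32 words of only C and T, 31 (FL), 28 (ΔNTR) and 30 (ΔCTR) were above their level in the same coding sequences, with a median log2 ratio of 0.21, 0.22 and 0.17. All 32 words of only A and G were below it in each list, with medians of -0.27, -0.33 and -0.33. The highest word in FL was CATTC with 135 counts against 95.7 from the same coding sequences, in ΔNTR TTCGT with 81 against 51.1 and in ΔCTR TGTAT with 133 against 89.2. GGGGG was among the 5 lowest words of all 3 lists, with 62, 91 and 63 counts against 108.7, 135.5 and 114.5. Words within a window overlap, so their counting intervals are too narrow and are not given.

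Codons showed the same bias. In the 10 codons around the centre, the 8 codons of pyrimidines only had a median log2 ratio to the same coding sequences of 0.16, 0.18 and 0.17 in the 3 large lists, and the purine-only codons had -0.14, -0.18 and -0.19. The highest codon in FL was the serine codon TCT, 809 counts against 657 (log2 ratio 0.30, 0.20 to 0.40). By amino acid, phenylalanine was at 0.18 (0.11 to 0.24) in FL and at 0.24 in both other large lists, and cysteine, tyrosine and serine were also above 0 with their intervals in all 3 lists. Lysine was lowest at -0.20 (-0.25 to -0.14), -0.22 and -0.21, with glutamate at -0.12, -0.16 and -0.14. The C plus T excess was present at codon positions 1, 2 and 3, with 1.51, 1.95 and 2.07 points in FL.

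Members were somewhat more frequent at the start of the interior CDS than at its end. Of 10 equal parts, the first held 11.2% (10.3 to 12.2) of FL members, 11.4% (10.5 to 12.2) of ΔNTR and 10.1% (9.31 to 10.9) of ΔCTR, and the last held 8.81% (8.01 to 9.68), 9.34% and 9.25%. The centre lay on codon position 1 in 33.7% of FL members, 33.8% of ΔNTR and 34.7% (33.4 to 36.0) of ΔCTR. Centres were rarer next to exon junctions. Within 10 nt of a junction lay 10.0% (9.16 to 10.9) of FL members against 12.7% of the positions of the same coding sequences, 9.32% against 12.6% in ΔNTR and 10.5% against 12.9% in ΔCTR. Within 20 nt the FL share was 24.9% (23.6 to 26.1) against 25.3%, and that of ΔNTR 23.4% (22.3 to 24.5) against 25.04%. Peaks are genomic intervals, in FL at least 16 nt wide with a median of 22 nt. A centre within 10 nt of an exon end thus often needs a peak that reaches into the intron. The compared positions do not allow for this, so no conclusion on binding at junctions can be drawn.

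Some coding sequences could hardly be seen. Of the interior CDS of genes with at least 1 CPM, 4.94% lies inside a second gene on the same strand, but 6 of the 15166 members (0.0396%) did. Among 210 genes with at least 500 CPM in FL and 300 nt of interior CDS, 13 had no member in any list, namely ACTB, PGK1, CBX5, RPS3A, HNRNPA1, RPL19, RPL7, SERBP1, CYP1B1, ABHD2, TMED10, EIF4B and XRCC6. Of these, 8 had a 3′UTR peak and 1, HNRNPA1, lay within another gene. ACTB has a coding sequence similar to that of ACTG1, and whether this bears on its lack of a member was not tested. In none of the 13 does absence of a member show absence of crosslinking, given the score limit of 3 and removal of parental peaks. CBX5, SERBP1, CYP1B1, ABHD2, TMED10 and XRCC6 were named after their values had been seen.

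Few host genes differed in input between a LARP6 line and parental cells. Past 2-fold either way were 1 of 2015 FL host genes (all genes 0.0595%), 18 of 2115 of ΔNTR (0.777%), 1 of 2293 of ΔCTR (0.0594%), none of 111 of ΔLa-module (0.423%) and none of 66 of ΔNTD (0.365%). With 1 library per line these counts have no replicate check.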

How the data were processed

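The authors demultiplexed the iCLIP reads, removed rRNA and tRNA reads with Bowtie 2, aligned the rest to GRCh38.p13 with STAR and GENCODE release 42, collapsed duplicates with UMI-tools, called peaks with Clippy (rolling mean of 15 nt, minimum counts of 3), merged 3 replicates with summed scores and subtracted parental peaks with bedtools 2.30.0. The deposited score of each peak is this summed value, with no stated scaling for depth. For input, the deposited counts are raw reads per gene from Trim Galore 0.6.10 and STAR 2.7.10b, from 1 PE150 and 1 single-end (SE50) library for each of 6 lines. SE50 totals were 6181270 to 10307756, of which MIR100 took 65.8% to 75.5%, so PE150 was used. Counts of the sense strand of each protocol were used.

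Peak centres were placed on canonical transcripts of GENCODE release 44 with Python 3.11.15 and recovered at 500 simulated positions. Sequences were read from its transcripts. CPM was scaled by TMM in edgeR 4.0.16, with no edgeR test. Intervals were Wilson (shares), exact Poisson (counts), exact binomial (ratios of 2 sums) and normal, over members (composition). Members are not replicates, and a confidence level of 95% covers counting error only. A log2 change of input used CPM plus 1.

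Genes and peaks were named by rank: the 12 highest FL members, 5 per list without a match (1 of them is not reported here), the 5 highest of ΔLa-module and ΔNTD, the 10 highest genes by summed FL score, 5 by number, 5 by density, the 5 highest and lowest share changes, and per gene list 3 top members and up to 3 abundant members without a peak. The members and lists were chosen with earlier results of these data known.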

Additional observations from a re-analysis of the deposited data

How the results depend on the processing

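No paired analysis was possible because no replicate number survives in the merged lists and each line has 1 input library of a kind, and no replicate could be left out. Of 129 alternative values, 58 stayed within the interval, or within 1.5 times for counts. A direction was defined only for the ratios at matched sites, the pyrimidine excess and the junction differences. None of these changed direction, and the other values had no direction to change. The cause of changes past the limits was not tested beyond what each setting leaves out. With scores above 3 only, FL kept 2003 members, ΔNTR 2363, ΔCTR 2486, ΔLa-module 22 and ΔNTD 7. The share of the list was then 30.5% (ΔNTR), 17.5% (ΔLa-module) and 15.2% (ΔNTD), the overlapped FL members 42.5% for ΔNTR and 49.9% for ΔCTR, the ΔNTR ratio at matched sites 0.776, the genes with a member 8.73%, 8.80%, 10.5%, 0.172% and 0.0518% in list order, and the ΔNTR difference at junctions -3.58 points. With a margin of 200 nt FL had a share of 26.97%, ΔNTR 27.7%, ΔCTR 28.7% and ΔLa-module 19.4%, and the genes with a member 15.2%, 15.9% and 17.2%. Without centres in a UTR exon of another transcript the shares were 29.4%, 29.98% and 31.04%. Requiring 50% overlap of both peaks gave 23.1% and 26.8% overlapped FL members and ratios of 0.697 for ΔNTR and 1.16 for ΔCTR, and a mean score of at least 10 gave 0.761 and 1.38. With only the 761 sites where each peak met no second FL peak, added after seeing the data, the ratios were 0.713 and 1.18. Sites whose ΔNTR or ΔCTR peak met several FL peaks were left out there, not counted once. Without COL6A3, the gene with the most FL score at the 910 sites, the ratios were 0.790 and 1.30. The pyrimidine excess over the peak itself was 2.37, 2.61 and 2.27 points in FL, ΔNTR and ΔCTR, and 2.78 points in ΔNTR with each gene counted once. In windows added after seeing the data it was 0.116, 0.0582 and 0.0233 points before the centre and 1.28, 1.68 and 1.16 after it. Genes with a member were 21.9%, 22.8%, 24.9% and 1.21% in FL, ΔNTR, ΔCTR and ΔLa-module at 10 CPM or more, and 37.5%, 43.2%, 46.4%, 4.03% and 1.42% in list order with SE50 input. Without the gene of the highest score, added after seeing the data, the FL share in the CDS moved past its interval for 10 of 14 gene lists. Within 10 nt of a junction the differences were -2.70, -3.25 and -2.38 points. With SE50 input 33, 42, 45 and 4 host genes of FL, ΔNTR, ΔCTR and ΔLa-module were past 2-fold, libraries in which at most 3179 coding genes had 10 counts.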
